A study of Homo sapiens with 9 samples.

Results

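NLF is a human cell line of neuroblastoma, a childhood tumour that arises from sympathetic precursors of the neural crest. Its cells were taken 48 hours after they had received a small interfering RNA (siRNA). One targeting group was formed here from the 6 libraries of cells given an siRNA against TBX2 (siTBX2, 3 libraries) or against its antisense RNA TBX2-AS1 (siTBX2-AS1, 3 libraries). They were set against the 3 libraries of cells given a non-targeting siRNA (siNTC), so all 9 libraries of the study were used. The members are the 18367 genes, of 57757 gene IDs in the count table, that passed a filter on low counts. All groups were wild-type cells of 1 line in the same medium, and the labels name biological replicates without saying whether they were separate cultures. P-values measure the spread between these samples. Whether each siRNA was 1 duplex or a mixture is not given in the sources used here.

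Small interfering RNAs are short double-stranded RNAs. One strand is loaded into an Argonaute protein and guides the cleavage of an RNA that it pairs with along its length. The same strand can also lower other messenger RNAs that match only its first bases, the seed, mostly at sites in the 3′ untranslated region (3′ UTR), in the way a microRNA does. A non-targeting control siRNA is chosen to lack a full-length match, and it too enters Argonaute and has a seed of its own. TBX2 encodes a T-box transcription factor that acts mostly as a repressor, and TBX2-AS1 is a noncoding RNA transcribed from the opposite strand of the same locus. The design has 1 control siRNA and no untreated or mock-treated cells. A change that both targeting siRNAs made and the opposite change made by the control siRNA therefore cannot be told apart in any result below.

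Library totals ran from 31894280 to 51434090 counts. Neuroblastoma marker genes were at high levels in the control libraries, with means of 205 CPM (counts divided by the scaled size of the library) for HAND2, 91.3 for ISL1, 47.9 for GATA3 and 263 for MYCN, while the noradrenergic enzyme gene DBH (0.672 CPM) and the granin genes CHGA (0.541) and CHGB (0.289) were near 0 and TH had 0 counts in all 9 libraries. Summed leukocyte markers stayed at 2.2 to 3.09 CPM in control and 1.49 to 4.71 in targeting libraries, and the T cell genes CD3D and CD3E, the Schwann cell gene SOX10 and the keratin genes KRT5 and KRT14 had 0 counts throughout. Other epithelial genes were detected, KRT18 with 75 to 491 counts, KRT8 with 17 to 109, CLDN4 with 22 to 78 and EPCAM with 8 to 44. The 5 tested epithelium markers summed to 5.14 to 12.2 CPM in control and 4.25 to 12.9 in targeting libraries. The 7 tested markers of fibroblasts and endothelium summed to 1008 to 1288 CPM in control and 957 to 1425 in targeting libraries, most of it COL3A1, and of the endothelial genes CDH5, KDR and TEK had at most 3 counts in any library while VWF had 4 to 115. The 8 tested Schwann and melanocyte lineage markers summed to 16.3 to 17.7 CPM in control and 18.6 to 28.2 in targeting libraries, without overlap. Most of the sum was MITF, at 9.16 to 20.2 CPM before scaling over all libraries. The median log2 fold change of the markers was 0.39, but their library medians overlapped. They were -0.16 to 0.14 in control, -0.35 to 0.38 in siTBX2 and 0.08 to 0.68 in siTBX2-AS1. The part of these markers in the results below was not tested. One of these markers, the melanocyte gene DCT, rose by 0.83 in the fit with 3 group means described below (adjusted p = 0.0306). In the pooled comparison edgeR and limma-voom called 0 markers of these lists and DESeq2 1, of the Schwann and melanocyte lineage, where 1 was higher and 1 lower at an unadjusted p under 0.05; of the fibroblast and endothelium markers 1 was higher and 1 lower at that level, and of the leukocyte and epithelium markers 0.

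The targets themselves were read first. TBX2 is on the plus strand of chromosome 17 from 61399896 to 61409466, within the span of TBX2-AS1 on the minus strand (GRCh38, GENCODE release 29; the counts were made on the older build hg19, and positions were looked up by gene ID). TBX2 stood at 276, 254 and 249 CPM in the control libraries. In the siTBX2 libraries it stood at 127, 110 and 113 CPM, and in the siTBX2-AS1 libraries at 173, 228 and 224. All 6 targeting libraries were thus below all 3 controls, the siTBX2 libraries furthest. With the 6 libraries as one group the log2 fold change was -0.68 (SE 0.25), which was not called (edgeR adjusted p = 0.308). Taken separately, TBX2 fell by 1.15 in siTBX2 (SE 0.11, edgeR adjusted p = 0.00734), and its value of -0.32 in siTBX2-AS1 (SE 0.11) was not called (adjusted p = 0.172). The fit with 3 group means called it at -0.74 (adjusted p = 0.0106). The genes overlap on opposite strands, and the use of strand in counting is not given in the sources used here. Whether reads of TBX2-AS1 are among the TBX2 counts was not tested.

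TBX2-AS1 stood at 37.5, 34 and 37.4 CPM in the control libraries, at 31.7, 38.7 and 36.5 in siTBX2, and at 4.71, 5.87 and 0.714 in siTBX2-AS1. The siTBX2 libraries overlapped the controls and the siTBX2-AS1 libraries were far below both. Its pooled log2 fold change was -0.88 (SE 0.90, edgeR adjusted p = 0.779). Both target RNAs differed between the targeting groups: siTBX2-AS1 minus siTBX2 was 0.84 (SE 0.11, edgeR adjusted p = 0.00484) for TBX2 and -3.23 (SE 0.57, adjusted p = 0.0173) for TBX2-AS1. A fit that takes 6 libraries as one group counts such a difference as spread inside the group, so that it favours genes that moved alike in both knockdowns.

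**Figure D1:**
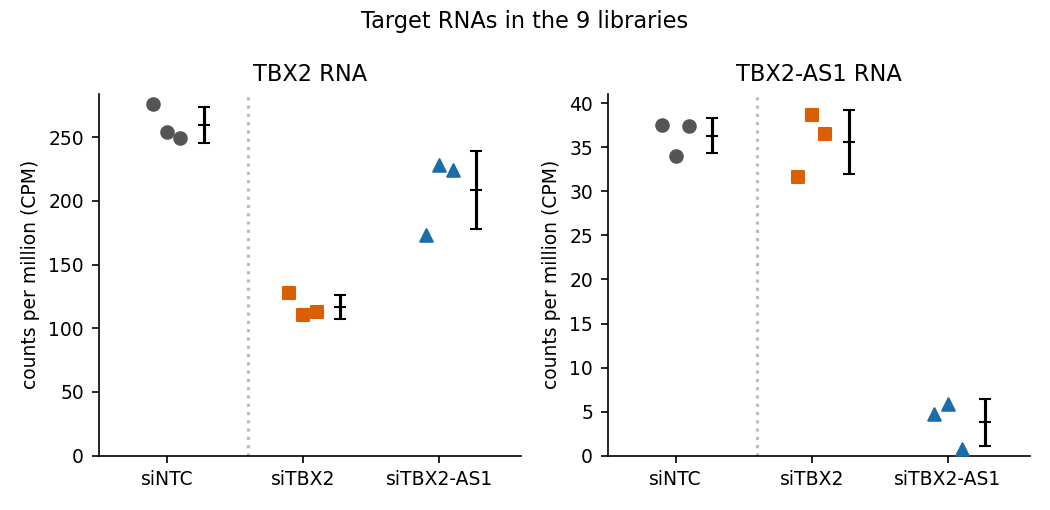
Levels of TBX2 RNA (left) and TBX2-AS1 RNA (right) in CPM on linear axes that start at 0, with 1 point for each of the 3 libraries of a group and, beside them, the mean with 1 SD; the dotted line parts the control from the 6 targeting libraries. TBX2 lies below the controls in all 6, at 110 to 228 CPM against 249 to 276. TBX2-AS1 lies far below them in the siTBX2-AS1 libraries, at 0.714 to 5.87 CPM, and the siTBX2 libraries, at 31.7 to 38.7, overlap the controls.

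The comparison of the 6 targeting with the 3 control libraries asked what the knockdowns share. It called 51 genes, 0.278% of those tested, at an adjusted p under 0.05 (edgeR quasi-likelihood test, adjusted by Benjamini and Hochberg over all 18367 genes). Of these, 29 rose (0.158%) and 22 fell (0.12%). The changes were modest: the median log2 fold change was 0.71 among genes that rose and -0.69 among those that fell, and 5 rose and 4 fell at least 2-fold. In all 51 the 6 targeting libraries did not overlap the 3 controls in CPM. The same was so for 8% of all tested genes, 842 with all 6 above (4.58%) and 627 with all 6 below (3.41%). Before adjustment, 1296 genes were higher (7.06%) and 947 lower (5.16%) at p under 0.05.

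Between the targeting siRNAs themselves, 1015 genes were called (5.53% of those tested). Of the 51 shared genes 1 was among them, BEX1. The size of the difference between the separate changes of the 51 genes had a median of 0.09 on the log2 scale, and among those with a mean level of at least 2 log2 CPM it reached 0.56, in MAOB. This closeness is in part how the pooled fit works, since it calls few genes whose 6 libraries spread widely. Leaving out any 1 library cut the count from 51 to between 6 (without siTBX2 replicate 3) and 24 (without siNTC replicate 2). Of the 28 called genes named by the rule for single genes, 6 were called in 8 or 9 of these 9 fits (FNDC3A, GPD2, ITGA1, ERLIN2, LZTFL1 and TOMM20), DDX18 in 5, and 21 in 3 or fewer, 10 of these in none. A pooled fit with replicate number as a block called 32 of the 51. Of the named genes, BEX1, DPYSL3, FAM32A, MAOB, MCFD2, MRPL10, SGCB and TANK were not called there.

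**Figure D2:**
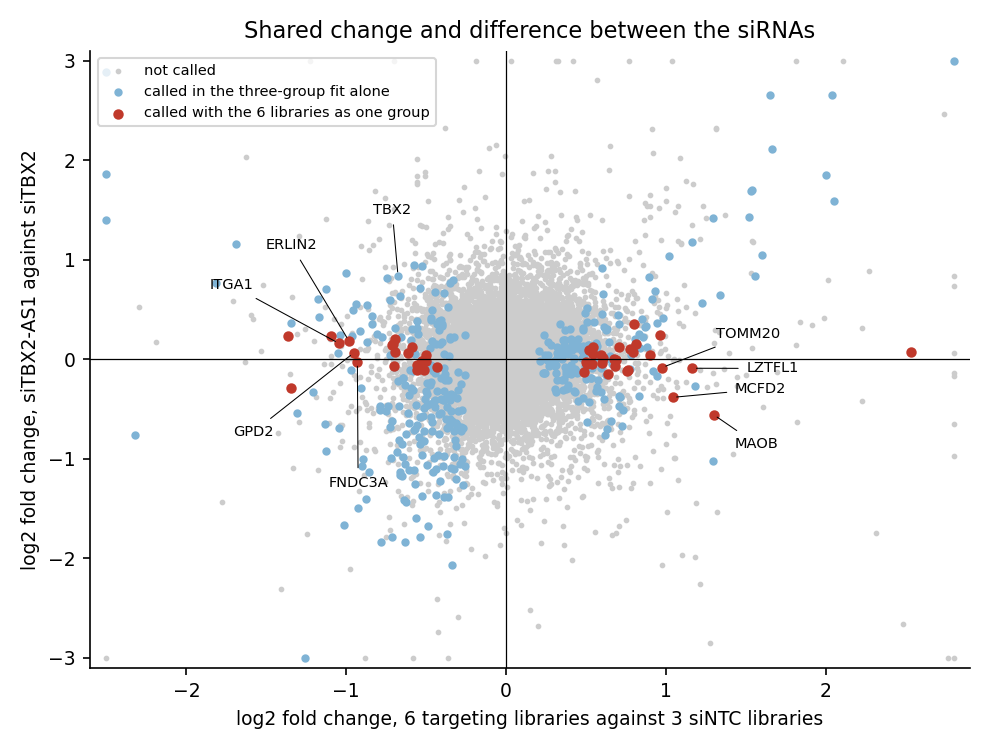
Each point is 1 of 14463 genes with a mean level of at least 0 log2 CPM; the horizontal axis is the log2 fold change of the 6 targeting libraries against the 3 siNTC libraries and the vertical axis that of siTBX2-AS1 against siTBX2, with 29 genes beyond the axes drawn at the edge. Red points, called with the 6 libraries as one group, lie along the horizontal line, and blue points, called only by the fit with 3 group means described below, spread above and below it, TBX2 among them.

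MAOB, LZTFL1, MCFD2 and TOMM20 had the highest rises of the named genes. MAOB, which encodes the amine-degrading enzyme monoamine oxidase B of the outer mitochondrial membrane, was at 14.6, 13.9 and 15.1 CPM in the control libraries and at 26.2 (lowest), 33.3 (median) and 52.5 (highest) in the targeting libraries. Its 3 siTBX2 libraries were the highest, at 34.8 to 52.5 CPM, and all 6 were above the controls (log2 fold change 1.30, SE 0.21, edgeR adjusted p = 0.0479). Taken separately it rose by 1.55 (SE 0.16) in siTBX2 and 0.99 (SE 0.15) in siTBX2-AS1, and the difference of -0.56 (SE 0.15) between them was not called (adjusted p = 0.0742). Separate changes share the control libraries here and below. Most named genes were taken by a rule that required no call between the knockdowns. Taken alone, siTBX2 called 1.61% and siTBX2-AS1 4.57% of all tested genes against siNTC.

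TOMM20, which encodes a receptor of the mitochondrial protein import complex, stood at 253, 334 and 320 CPM in control and at 533, 599 and 657 as lowest, median and highest in the targeting libraries. No targeting library came near the controls (log2 fold change 0.97, SE 0.10, adjusted p = 0.0102), and the separate changes were 1.02 and 0.93. The gene has processed pseudogenes, so its count is less certain. SLC36A1, a lysosomal amino acid transporter gene, rose by 0.76 (SE 0.11, separately 0.81 and 0.70), and NRBF2, which encodes a subunit of the lipid kinase complex that starts autophagy, by 0.68 (SE 0.11, separately 0.72 and 0.65). The wider list of 33 tested lysosome and autophagy genes held no call in the pooled fit, with a median of 0.08 and 6 members higher at an unadjusted p under 0.05 (DESeq2 4 higher, limma-voom 0).

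LZTFL1 regulates protein traffic into cilia. Its control libraries read 13.8, 19.3 and 15.7 CPM, and its targeting libraries 32.2 (lowest), 36.7 (median) and 39.4 (highest). The groups were clear of each other (log2 fold change 1.16, SE 0.12, adjusted p = 0.0102), with separate changes of 1.21 in siTBX2 and 1.12 in siTBX2-AS1. MCFD2 encodes a partner of the cargo receptor that carries coagulation factors out of the endoplasmic reticulum. It went from 76.4, 60 and 54.6 CPM to a lowest of 102, a median of 132 and a highest of 151 (log2 fold change 1.04, SE 0.16, adjusted p = 0.037). Its siTBX2 libraries were the higher ones, and the separate changes of 1.22 and 0.84 did not differ by test (adjusted p = 0.123, difference -0.38, SE 0.13).

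DPYSL3, which encodes a growth cone protein of the collapsin response mediator family, stood at 116, 129 and 118 CPM in control and at 162, 227 and 275 as lowest, median and highest in targeting libraries. One library, siTBX2-AS1 replicate 3, was closest to the controls and the others were at 213 or above (log2 fold change 0.90, SE 0.15, adjusted p = 0.0477). BEX1, a small gene on the X chromosome expressed in brain, was the 1 shared gene whose knockdowns also differed. It was at 38.9, 44.4 and 41.8 CPM in control, 59.8 to 68.6 in siTBX2 and 80.1 to 83.2 in siTBX2-AS1, 3 ranges without overlap (log2 fold change 0.80, SE 0.13, adjusted p = 0.0461), and siTBX2-AS1 was higher than siTBX2 by 0.35 (SE 0.08, adjusted p = 0.0471). NAT8L, the gene of the enzyme that makes N-acetylaspartate, rose by 0.79 (SE 0.12), and SCG2, which encodes the dense-core vesicle protein secretogranin II, by 0.59 (SE 0.09) from 239, 286 and 219 CPM to between 356 and 412.

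Other genes that rose work in cell division, signalling, DNA repair and ribosome assembly. BOD1, which is needed for correct chromosome attachment in mitosis, rose by 0.77 (SE 0.10), and PPP2R1B, a scaffold subunit gene of protein phosphatase 2A, by 0.76 (SE 0.10). PPP2R1B had the tightest controls of the named genes, at 67.7, 67.2 and 67.4 CPM against 98.1 to 129 in the targeting libraries. ERCC5, the gene of the XPG nuclease of nucleotide excision repair, rose by 0.69 (SE 0.10), and FAM32A by 0.67 (SE 0.10). DDX18 and RRP12, both of which encode ribosome assembly factors, rose by 0.63 (SE 0.07) and 0.50 (SE 0.07), DDX18 from 286, 323 and 292 CPM to between 433 and 493. None of the 6 had separate changes that differed by test, their adjusted p between the knockdowns running from 0.22 for DDX18 to 0.992 for FAM32A. For BOD1, PPP2R1B, ERCC5 and FAM32A the rule for named genes required this.

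Beyond these 16 genes the rule for named genes left 13 that rose, given here after their values were seen. They include EIF3B, a translation initiation factor gene (0.49), MAP2K4, a kinase gene of the stress-activated JNK pathway (0.55), MBTPS1, the gene of the site-1 protease that activates membrane-bound transcription factors (0.54), TENT5A, a poly(A) polymerase gene (0.52), the noncoding host gene SNHG16 (0.53), SPG21 (0.60), the histone-binding protein gene GRWD1 (0.61), ZSWIM4 (0.71) and the pseudogene DHX40P1 (0.96). AC110275.1 had 0 counts in each control library and 9 to 24 in the targeting libraries. Against a floor of 3 counts over the control group it was at least 16.7-fold higher, a gene that passed the count filter through the targeting libraries alone. The other 3 were gene IDs without a symbol.

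The genes that fell included FNDC3A and GPD2, which had the smallest adjusted p of the comparison. FNDC3A, which encodes a membrane protein with fibronectin type III domains, lies on chromosome 13 from 48975912 to 49209779 (GRCh38). It was at 198, 182 and 170 CPM in the control libraries and at 91.8 (lowest), 93.5 (median) and 107 (highest) in the targeting libraries. Targeting libraries held 52.5% of the control mean (log2 fold change -0.93, SE 0.08, adjusted p = 0.00378), and the separate changes were -0.92 and -0.94. GPD2, the mitochondrial glycerol-3-phosphate dehydrogenase gene on chromosome 2, fell from 83.3, 77.6 and 85.6 CPM to a lowest of 40, a median of 42 and a highest of 47.5 (log2 fold change -0.95, SE 0.08, adjusted p = 0.00378; separately -0.99 and -0.92). In both genes the 6 targeting libraries lay closer together than the gap to the controls.

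ITGA1, the alpha-1 integrin subunit gene of a collagen receptor, fell from 261, 196 and 239 CPM to a lowest of 106, a median of 109 and a highest of 129 (log2 fold change -1.04, SE 0.10, adjusted p = 0.0091). Separately it stood at -1.13 in siTBX2 and -0.97 in siTBX2-AS1. ERLIN2, whose product marks inositol trisphosphate receptors for degradation in the endoplasmic reticulum, fell from 122, 109 and 110 CPM to between 49.4 and 66.3 (-0.98, SE 0.10, adjusted p = 0.0102). TANK, which encodes an adaptor that binds TRAF proteins in innate immune signalling, had the largest fall of the named genes, from 39.5, 28.2 and 32.7 CPM to a lowest of 12.6, a median of 15.6 and a highest of 19.8 (-1.09, SE 0.16, adjusted p = 0.0288). Its controls were also the most spread of these 3 genes relative to their level. On the authors' FPKM, a second scale, the targeting and control libraries of TANK overlapped.

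The remaining 7 named genes fell by less. TMEM245 stood at -0.71 (SE 0.09), MRPL10, a mitochondrial ribosomal protein gene, at -0.71 (SE 0.10), DCAF6, which encodes a substrate receptor of a CUL4 ubiquitin ligase, at -0.70 (SE 0.09) and SGCB, the beta-sarcoglycan gene, at -0.70 (SE 0.11). ATOH8, a basic helix-loop-helix transcription factor gene, stood at -0.69 (SE 0.11), GINS4, a subunit gene of the replicative helicase, at -0.61 (SE 0.09) and SUGT1, the gene of an HSP90 co-chaperone with pseudogene copies, at -0.56 (SE 0.07). None was called between the knockdowns, as the rule that chose them required, with differences from -0.06 in DCAF6 to 0.21 in SGCB. The 10 genes that fell outside the rule, given after their values were seen, included AC007879.3 (-1.36), the metalloprotease genes ADAM12 (-1.34) and ADAMTS3 (-0.52), TMTC1 (-0.59), the deubiquitinase gene YOD1 (-0.52), ZNF37A (-0.52), TLCD4 (-0.50), the cytokine signalling suppressor gene SOCS6 (-0.50) and SELENOI, a phospholipid synthesis gene (-0.43). On the authors' FPKM, used as a second scale, 21 of the 28 called genes named by the rule were not called with either pseudocount (0.1 or 1), and 25 were not called without a filter. In 6 of them the change was over 1.5 times smaller in at least 1 setting, the smallest values being 0.75 for LZTFL1, 0.48 for NAT8L, 0.47 for PPP2R1B, 0.22 for SLC36A1, -0.21 for SUGT1 and -0.44 for TANK. In TANK, SUGT1, SLC36A1, DCAF6 and RRP12 the targeting and control libraries overlapped in FPKM. TANK stood at 10.8, 4.36 and 4.01 FPKM in control and at 3.53 to 4.58 in targeting libraries, so only siNTC replicate 1 was clear of them.

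**Figure D3:**
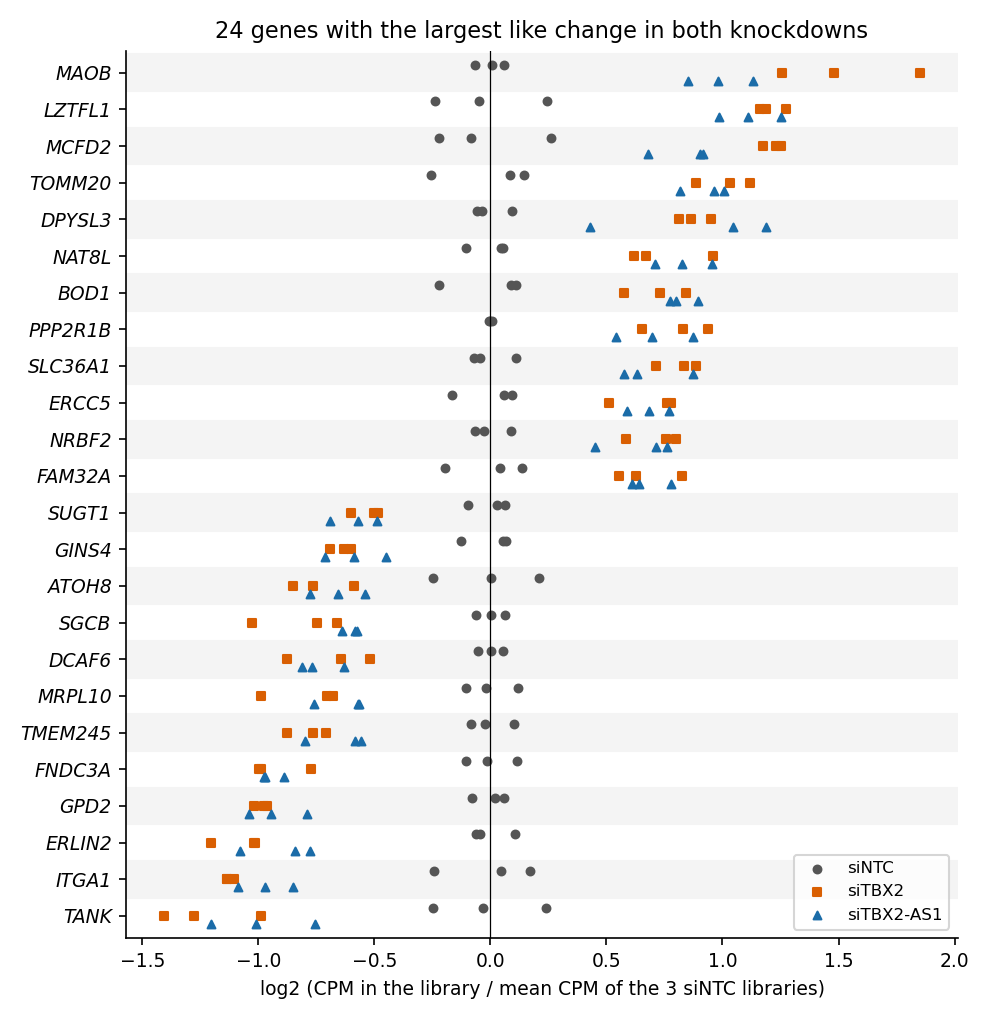
For 24 genes (12 that rose, 12 that fell) each point is 1 library, placed by the log2 ratio of its CPM to the mean of the 3 siNTC libraries; circles are siNTC, squares siTBX2 and triangles siTBX2-AS1. The 6 targeting libraries lie to one side of the 3 controls in every gene, as the rule for these genes required. Squares and triangles mostly mix, in part through the same rule, with the widest parting in MAOB.

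The 3′ UTRs of the shared genes were then read for short words, because seed matches lie there and the siRNA sequences are not given in the sources used here. Words of 6 and 7 bases were searched on the transcript strand in the longest annotated 3′ UTR of each gene, at least 50 bases long, for 13017 tested genes, 23 of those that rose and 21 of those that fell. Only words held by at least 5 of the genes that rose or fell were ranked. Among genes that rose, GACGTA came first of the ranked words of 6 bases, both by the difference and by the ratio of its share to that in genes not called. It was in 11 of the 23 searched genes that rose (47.8%), 2 of the 21 that fell (9.52%), 602 of 12973 not called (4.64%) and 615 of all 13017 (4.72%). The word was chosen after its shares were seen, a longer form of it was already known from the siTBX2 libraries, and no test was made, so its share is a description. A match is a run of letters, not a site in use. The following windows of 30 bases, 12 on either side of the word in capitals, are shown because they are all 12 matches in the genes that rose; LZTFL1 has 2. The sequences are transcripts of GENCODE release 29 (GRCh38), 5′ to 3′.
LZTFL1, first: cactttttaaaaGACGTAtattcaacataa
LZTFL1, second: atgatgttctttGACGTAaatcaacgtgat
MCFD2: gctgctgataaaGACGTAcccgagactggg
TOMM20: tttaatctctgaGACGTAaatatgtgaggt
DPYSL3: tattgtgttgatGACGTAcgttatttccat
NAT8L: aatatacagacaGACGTAaagtgttttagc
ZSWIM4: tgctagtcactgGACGTAcaactcaggaac
ERCC5: atttgtcgcaaaGACGTAataaaattaact
NRBF2: gatgcaagagtgGACGTAatgctagttggc
FAM32A: acgatttctgttGACGTAgatattgaaaga
GRWD1: tggattctgtttGACGTAttgttctctaga
MAP2K4: gagaggaagcaaGACGTAaagaattttcat

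The bases beside the word varied. Among the ranked words of 7 bases the one with the highest ratio in genes that rose was GACGTAA, in 6 of 23 (26.1%) against 1.25% of genes not called. The next was AGACGTA, also in 6 of 23, against 1.74%. By the difference in share another word of 7 bases led, GGGAGCA, in 10 of 23 (43.5%) against 13.7%. MAOB, BEX1, SCG2, DDX18, RRP12, BOD1, PPP2R1B and SLC36A1 rose and did not hold GACGTA in the 3′ UTR searched, and ZNF37A and SUGT1 fell and did. Per length the word occurred 26.5 times in 100 kb of 3′ UTR of genes that rose, 2.23 times in those that fell and 2.4 times in those not called, where the median 3′ UTRs were 1180, 3924 and 1358 bases long. Among the 21 searched genes that fell, the word of 6 bases that led by the difference in share was GTGCTA, in 17 (81%) against 25.3% of genes not called. Among words of 7 bases it was AAATTAA, in 18 of 21 (85.7%) against 29.2%. Both differences in share are larger than that of GACGTA, in genes with longer 3′ UTRs. For lengths of 3000 bases or more, GTGCTA was in 13 of 14 genes that fell against 56.7% of those not called, and AAATTAA also in 13 of 14, against 62.7%.

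Genes with the word were then read over the whole set of searched genes. The 615 genes that held it had a median pooled log2 fold change of 0.11, with 0.11 in siTBX2 and 0.10 in siTBX2-AS1, and the difference between the knockdowns had a median of 0.00. The 12402 genes without it stood at 0.02, with 0.01 and 0.02 separately. All 6 targeting libraries were above all 3 controls in 81 of the 615 (13.2%) and in 638 of the 12402 (5.14%). This was so at each length of 3′ UTR: 21.9% against 6.22% for lengths under 1000 bases, 16.8% against 4.45% from 1000 to under 3000, and 9.06% against 4.26% for 3000 or more. The called genes are among these genes, and the word was chosen by its share in those that rose. A part of the excess was therefore set beforehand, and shares without the called genes were not computed. Whether the word matches the seed of any of the 3 siRNAs was not tested.

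**Figure D4:**
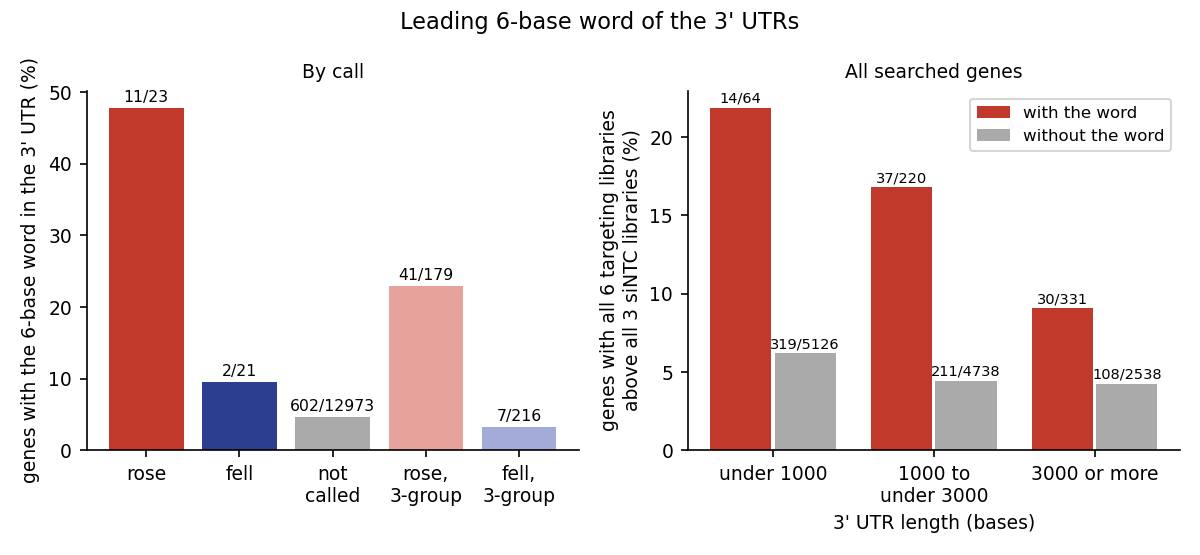
Left, the share of searched genes whose 3′ UTR holds the leading word of 6 bases, by call in the pooled fit and in the fit with 3 group means, with counts above the bars; right, the share of all searched genes with all 6 targeting libraries above all 3 controls, with and without the word, by 3′ UTR length in bases. The bar of genes that rose stands at 11 of 23, and at each length the bar of genes with the word is the taller, from 14 of 64 against 319 of 5126 to 30 of 331 against 108 of 2538. The called genes by which the word was chosen are counted in these bars.

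A second fit gave each of the 3 groups its own mean and compared the average of both targeting groups with siNTC, so that a difference between the knockdowns no longer counted as spread. It called 437 genes (2.38% of those tested), 197 that rose (1.07%) and 240 that fell (1.31%), and they included all 51. Of the 437, 162 were also called between siTBX2-AS1 and siTBX2, so their average stands for unequal changes. CDK1, the main mitotic kinase gene, is such a case, called at -0.38 (adjusted p = 0.0354) with 0.14 in siTBX2 and -0.91 in siTBX2-AS1. In 351 of the 437 the targeting and control libraries did not overlap. GACGTA also led the words of 6 bases in this fit, in 41 of 179 searched genes that rose (22.9%), 7 of 216 that fell (3.24%) and 4.49% of genes not called. The pooled calls by which the word was chosen are among these genes, so its lead was partly set beforehand. Among the 240 genes that fell, the leading word of 7 bases by the difference in share was TTAAACT, in 140 of 216 searched (64.8%) against 19.7% of genes not called. The median 3′ UTR was 2530.5 bases in these genes and 1343.5 in those not called. By length the shares were 33.3% against 5.79% under 1000 bases, 66% against 20.6% from 1000 to under 3000, and 76.7% against 43.8% for 3000 or more. These shares were not split by knockdown, and the 240 genes are not all shared falls. They include HCCS (0.01 in siTBX2, -1.82 in siTBX2-AS1) and SLIT3 (-1.07 and -0.13) beside genes such as GPD2 (-0.99 and -0.92). Fits of this kind without 1 library called 83 to 276 genes, the lowest without siNTC replicate 1.

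MYCN, the oncogene of neuroblastoma, rose in this second fit. It was at 234, 287 and 269 CPM in control and at 343 (lowest), 384 (median) and 449 (highest) in the targeting libraries, without overlap, and the siTBX2 libraries were the higher ones at 419 to 449. The mean change was 0.56 (SE 0.07, adjusted p = 0.0099), with 0.72 in siTBX2 and 0.39 in siTBX2-AS1, which differed (adjusted p = 0.0485). In the pooled fit, which gave the same 0.56 with an SE of 0.12, it was not called (adjusted p = 0.0947). An antisense gene overlaps MYCN too, with the same limit as for TBX2.

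Lists of genes were counted in the pooled fit beside all tested genes, of which 51.8% had a positive fold change and whose median was 0.01. At an unadjusted p under 0.05, 7.06% of all tested genes were higher and 5.16% lower, 5.53% were called between the knockdowns, and the second fit called 1.07% higher and 1.31% lower. Counts in the lists are read beside these shares. Genes for ribosomes and their assembly were mostly higher. Of 38 ribosomal protein genes 37 had positive values (median 0.19), 20 were higher with p under 0.05 before adjustment (52.6%), and edgeR called 0 (DESeq2 3 higher, limma-voom 0). Their summed level was 25050 to 26032 CPM in the control libraries and 27504 to 30110 in the targeting libraries, without overlap. In the second fit RPL30 rose, by 0.21. Ribosomal protein genes have many pseudogenes, so single counts are uncertain. Of 39 genes of ribosome biogenesis and nucleotide synthesis 33 had positive values (median 0.11), and 2 were called, DDX18 and RRP12 (DESeq2 4 higher, limma-voom 2). The second fit added FBL, the gene of the nucleolar methyltransferase fibrillarin (0.33), PES1, a ribosome assembly factor gene (0.31), and NPM1, the nucleophosmin gene (0.23).

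Genes of the integrated stress response, which cells switch on when amino acids are short or translation initiation is blocked, were also mostly higher. Of 28 tested, 26 had positive values (median 0.24), 10 were higher (35.7%) and 0 lower at an unadjusted p under 0.05, and edgeR called 0 in the pooled fit (DESeq2 6 higher, limma-voom 0). The list summed to 2358 to 2627 CPM in the control and 2862 to 3165 in the targeting libraries. Its members that rose in the second fit were GARS1, the glycyl-tRNA synthetase gene (0.42, adjusted p = 0.0288), SHMT2, a mitochondrial serine hydroxymethyltransferase gene (0.40, 0.0221), MARS1, the methionyl-tRNA synthetase gene (0.32, 0.0437), and SLC7A5, an amino acid transporter gene (0.60, 0.0354). GARS1 was at 292, 330 and 336 CPM in control and at 398 to 470 in the targeting libraries, with separate changes of 0.42 and 0.43. SLC7A5 was less even, at 0.80 in siTBX2 and 0.40 in siTBX2-AS1.

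Genes of the G1/S transition and DNA replication were mostly lower. Of 41 tested, 9 had positive values (median -0.15), 12 were lower (29.3%) and 2 higher (4.88%) at an unadjusted p under 0.05, and 1, GINS4, fell in the pooled fit (DESeq2 5 lower and 1 higher, limma-voom 1 lower). RRM1, the large subunit gene of ribonucleotide reductase, fell besides it in the second fit (-0.36, adjusted p = 0.0126). The list summed to 6479 to 6901 CPM in the control and 5922 to 6729 in the targeting libraries, which overlap. Between the knockdowns 6 of the 41 differed. E2F2, the gene of a transcription factor that drives entry into S phase, had the highest value of the list at 0.51, from 65.4, 65.7 and 84.7 CPM to between 93.7 and 116, and was called in neither fit (adjusted p = 0.126 and 0.0645). The 37 mitosis genes had a median of 0.02 with 0 called by edgeR, DESeq2 or limma-voom, 2 higher and 1 lower at an unadjusted p under 0.05, and 8 of the 37 differed between the knockdowns.

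Noradrenergic and neuronal genes split. Of 34 tested, 2 rose in the pooled fit, MAOB and SCG2, the median was 0.26, and 8 were higher and 4 lower at an unadjusted p under 0.05 (DESeq2 5 higher and 1 lower, limma-voom 1 higher). In the second fit VGF, a neuropeptide precursor gene, rose by 0.84 with like separate values (0.78 and 0.89), and INA, the alpha-internexin gene, by 1.13 with unlike ones (0.42 and 1.84). SYT1 (-0.30), GAP43 (-0.58) and ELAVL4 (-0.68) fell there, GAP43 mainly in siTBX2 (-0.94 against -0.22) and ELAVL4 mainly in siTBX2-AS1 (-1.24 against -0.12). In all, 10 of the 34 differed between the knockdowns. Of 37 matrix and integrin genes 1, ITGA1, fell in the pooled fit (DESeq2 1 higher and 2 lower, limma-voom 1 lower), and their median was 0.04.

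The interferon and RNA interference lists held no call in the pooled fit by edgeR, DESeq2 or limma-voom. Every library, the controls included, came from cells given an siRNA. A response to introduced RNA that all groups share therefore cannot be seen in this comparison. Of 29 interferon-stimulated and double-stranded RNA sensing genes, 12 had positive values (median -0.03), with 0 higher and 4 lower at an unadjusted p under 0.05. Their separate medians were opposite in sign, -0.26 in siTBX2 and 0.15 in siTBX2-AS1. The library medians were -0.41 to -0.14 in siTBX2, all below the controls (-0.11 to 0.23), and the 3 siTBX2-AS1 libraries overlapped the controls. The 14 genes of RNA interference and microRNA processing had a median of 0.01, with 1 higher and 3 lower at that level, and in the second fit TNRC6B, the gene of a GW182 scaffold protein that Argonaute binds, fell by 0.46, separately -0.22 and -0.70. The 28 immediate early genes had a median of 0.28, with library medians of -0.24 to 0.26 in control and 0.10 to 0.46 in targeting libraries, which overlap. Among libraries numbered 1 the control read 0.26 and both targeting libraries 0.46. Among those numbered 2 the control read -0.09 (targeting 0.30 and 0.19), and among those numbered 3 it read -0.24 (targeting 0.10 and 0.18), so each targeting library was above the control library of its own number. EdgeR called 0 of these genes (3 higher and 1 lower at an unadjusted p under 0.05; DESeq2 1 each way, limma-voom 0). The 29 p53 target genes stood at a median of 0.02 and varied more within the groups than between them. Libraries with the same number had like medians, -0.42 (control), -0.49 and -0.54 for number 1, 0.06 (control), 0.17 and -0.06 for number 2, and 0.47 (control), 0.54 and 0.34 for number 3. The p53 list held 0 calls by each tool, with 1 gene higher at an unadjusted p under 0.05.

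In the lists that follow, edgeR and limma-voom called 0 genes in the pooled fit. At an unadjusted p under 0.05, 4 of 21 apoptosis genes were higher (median 0.02, DESeq2 1), 4 of 24 adrenergic transcription factor genes were higher and 1 lower (-0.03, DESeq2 3 higher), and 1 of 30 mesenchymal state genes was higher and 2 lower (0.01, DESeq2 0). Of 33 respiratory chain genes 3 were higher and 1 lower (-0.02, DESeq2 0), and of 30 proteasome genes 24 were positive and 3 higher (0.07, DESeq2 0). Of 28 hypoxia and glycolysis genes 4 were higher and 1 lower (0.12, DESeq2 1 each way), and of 26 cholesterol genes 3 were higher and 2 lower (0.04, DESeq2 1 higher). The 30 splicing factors (0.04), 19 cytosolic heat shock genes (0.07), 15 replication histones (-0.11), 17 neighbours of TBX2 on chromosome 17 (-0.06) and 11 tested NF-kappaB targets (-0.04) had 0 DESeq2 calls as well, with 1, 1, 1, 1 and 0 higher and 0, 0, 2, 2 and 1 lower before adjustment.

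**Figure D5:**
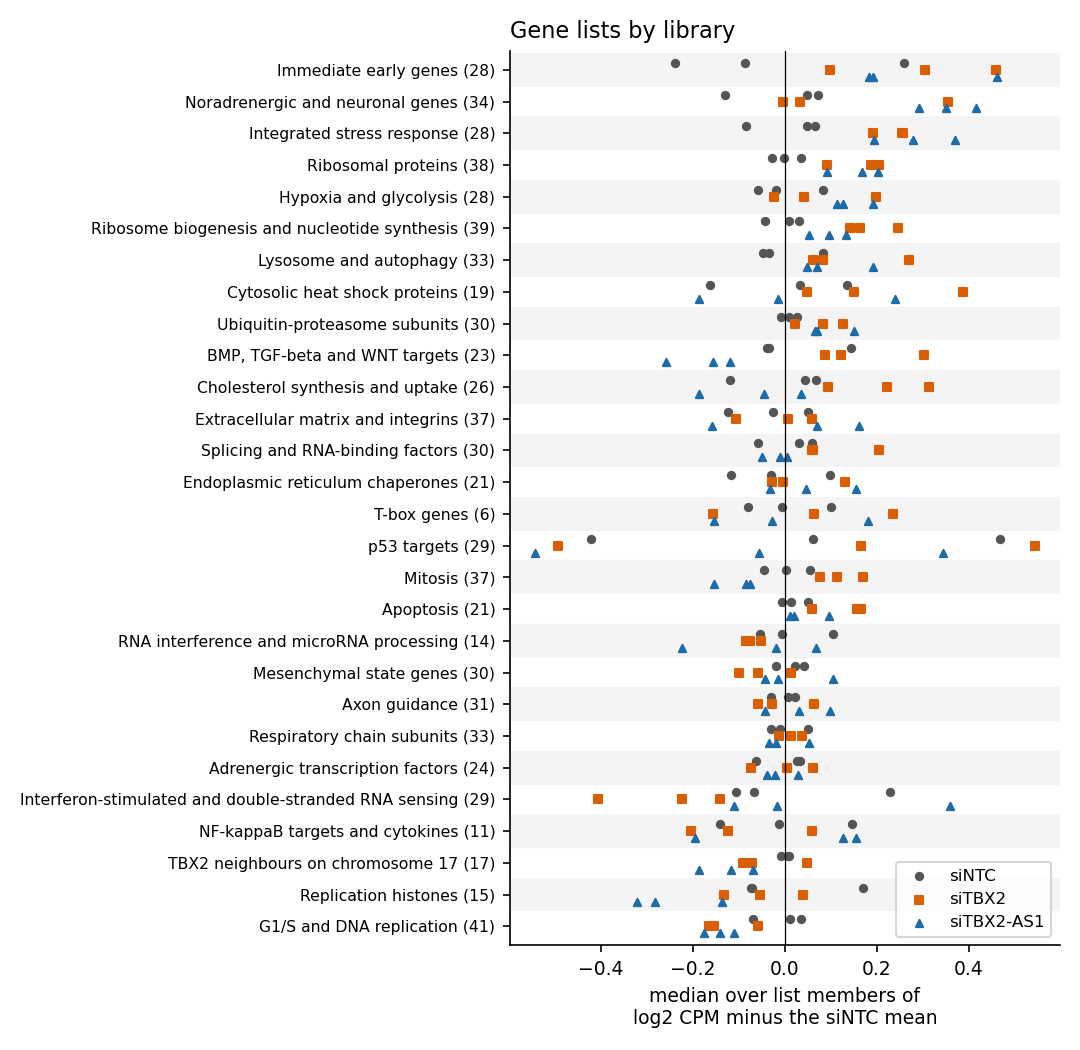
Each point is 1 library, placed by the median over a list's tested genes (their number in parentheses) of log2 CPM minus the siNTC mean; circles are siNTC, squares siTBX2 and triangles siTBX2-AS1. For the integrated stress response and the ribosomal proteins all 6 targeting libraries lie above the 3 controls, while the p53 list spreads from -0.54 to 0.54 within the groups.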

How the data were processed

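RNA-seq of 9 libraries was used. The labels' protocols name total RNA, a stranded kit and removal of ribosomal RNA. FastQC, STAR 2.4.2a, StringTie 1.3.3 and the build hg19 are listed in the submitters' processing notes; the sources used here do not give the annotation or the counting program. Whole-number expected counts (estimated reads per gene, unscaled) were deposited by the authors and were tested. FPKM, scaled to transcript length and depth, were deposited by the authors too and served as an alternative scale. Symbols were found for 52286 of 57757 IDs.

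Counts were filtered with filterByExpr, scaled by TMM and tested in edgeR 4.0.16 (R 4.3.3) by robust quasi-likelihood F tests, 6 against 3 libraries. CPM use the TMM-scaled totals. The alternatives used limma 3.58.1 and DESeq2 1.42.0. The scripts were tested on simulated data. Depth limits the precision of low counts, and the floor for a count of 0 covers counting error only. Tables and figures were made in Python 3.11.15 (numpy 2.4.6, pandas 2.3.3, matplotlib 3.10.9).

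Named genes were TBX2, TBX2-AS1 and, among called genes without overlap, with a mean of at least 2 log2 CPM and a symbol that is no clone or pseudogene name: the 12 each way with the largest smaller separate change and no call between the knockdowns, up to 4 each way with such a call, and up to 4 called members of each of the 32 lists. The genes, lists and rules were chosen with earlier results of these data known. A few genes are not reported here.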

Additional observations from a re-analysis of the deposited data

Results flagged for a closer look

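The separate changes of the targeting siRNAs differed by a direct test in 3 of the named genes. For TBX2 the log2 fold change of siTBX2-AS1 against siTBX2 was 0.837 (edgeR adjusted p = 0.00484), with all 3 siTBX2-AS1 libraries above the 3 siTBX2 libraries. For TBX2-AS1 it was -3.23 (adjusted p = 0.0173), again without overlap. For BEX1 it was 0.354 (adjusted p = 0.0471), and BEX1 was above the controls in all 6 targeting libraries. On log2 CPM, in none of the 30 named genes did 1 of the 6 targeting libraries stand apart from the others by Dixon's criterion, which chance alone meets in about 1 in 20 groups. GPD2 was at the border and passed the criterion on unlogged CPM, with 47.5 in siTBX2-AS1 replicate 3 against 40 to 42.7 in the other targeting libraries. The lack of such libraries was partly set beforehand, since 28 of the 30 were chosen among calls of the pooled fit, which calls few genes whose 6 libraries spread widely.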

How the results depend on the processing

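The 51 calls (29 higher, 22 lower) kept their direction in each alternative in which the gene was tested. Similar counts came from DESeq2 size factors (52), upper-quartile scaling (45), a minimum of 1 CPM in 3 libraries (61) and limma-voom (59). The count moved to 437 (197 higher, 240 lower) with 3 group means, to 589 (351, 238) with the DESeq2 Wald test, and to 31 (15 higher, 16 lower) without a filter, where 34629 genes were tested. On the authors' FPKM it was 8 (3 higher, 5 lower) for log2(FPKM + 0.1) and for log2(FPKM + 1), and 6 (2, 4) for log2(FPKM + 0.1) without a filter. The share that rose, 56.9%, was 45.1% with 3 group means. Without 1 library the pooled fit called 6 to 24 genes (2 to 13 higher, 4 to 11 lower), and the fit with 3 group means, an alternative chosen after seeing the data, 83 to 276 (30 to 96 higher, 53 to 181 lower). The cause was not tested, except that fits without a library have fewer samples. Of the 28 called genes named by the rule, 10 had no call in the 9 pooled fits without a library.

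With replicate number as a block the pooled fit called 52 genes (26 higher, 26 lower), 32 of them among the 51 (8 of the named genes, BEX1, DPYSL3, FAM32A, MAOB, MCFD2, MRPL10, SGCB and TANK, had adjusted p of 0.0547 to 0.0827), and the fit with 3 group means 1114 (530, 584). Libraries with the same number had deviations from their group means that correlated at 0.07 to 0.24, above 0.1 in 8 of 9 pairs. Those with other numbers correlated at -0.22 to 0.02, so every library went best with its own number. The numbers were not taken as pairs, because the rule used here asked for over 0.1 in all 9. The main fits therefore leave this tie out. The adjusted p of a modest change rests on 3 control libraries, and low counts limit what can be seen for rare RNAs.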

Other observations

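Genes of single pathways that rose in the fit with 3 group means, and were not called in the pooled fit, included some with like changes in both knockdowns. PDIA4, which encodes a disulfide isomerase of the endoplasmic reticulum, was at 187, 206 and 194 CPM in control and at 240 to 301 in the targeting libraries, without overlap (mean log2 fold change 0.48, SE 0.08, edgeR adjusted p = 0.0263, separately 0.47 and 0.48). Among 21 chaperone genes of the endoplasmic reticulum it was the 1 that rose, where 1.07% of all tested genes did. NR4A3, an immediate early nuclear receptor gene, rose by 1.74 (SE 0.34, adjusted p = 0.038) from a low level of 0.186 to 0.471 CPM to 0.765 to 1.19, the 1 call among 28 immediate early genes.

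HK2, a hexokinase gene of glycolysis, rose in that fit with a larger change in siTBX2, at 0.58 against 0.26 in siTBX2-AS1 (mean 0.42, adjusted p = 0.0151), and the difference between them was called (edgeR adjusted p = 0.0358). LUM, the lumican gene, fell by 0.41 (adjusted p = 0.0476, separately -0.59 and -0.23), and its difference was not called (adjusted p = 0.078).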
